A study of Homo sapiens with 9 samples.

Results

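The 5 microRNAs of the miR-200 family are encoded at 2 places in the human genome, MIR200B, MIR200A and MIR429 side by side on chromosome 1 and MIR200C and MIR141 on chromosome 12. Peaks around them were taken from 5 deposited lists of ChIP-seq peaks, 4 for ZEB1 and 1 for CTCF. ChIP-seq sequences the DNA that an antibody pulls down with a protein, and a peak is a place where such fragments pile up. All peaks were kept that touched a window from 1040000 to 1125000 on chromosome 1 or from 7040000 to 7100000 on chromosome 12, in hg19 coordinates counted from 1. This rule uses position alone. It gave 33 of the 47426 peaks of the 5 lists, 17 on chromosome 1 and 16 on chromosome 12. Distances are measured from 1102484 for MIR200B, 1104400 for MIR429, 7072862 for MIR200C and 7073260 for MIR141. MIR200A, which follows MIR200B and precedes MIR429 in the gene order, was given no position of its own. No hg19 annotation was used here, so whether a peak is exonic or intronic is not stated.

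ZEB1 was profiled in unmodified MiaPaCa2 cells, a line from a pancreatic ductal adenocarcinoma, and in unmodified RKO cells, a line from a colon carcinoma. It was also profiled in clones derived from MiaPaCa2, named WT and delta-Repeat. Both clones were grown out by dilution from cells electroporated with plasmids for a Cas9 nickase, an enzyme that cuts 1 DNA strand. The delta-Repeat clone had also received pairs of guide RNAs aimed at a repeat that lies upstream of the MIR200A and MIR200B genes, which the WT clone had not. CTCF was profiled in unmodified MiaPaCa2 cells only. The labels give no extent of the edit. Antibody lots differed between MiaPaCa2, RKO and the clones, and both clones shared 1 lot. Each condition had 1 sample with a peak list and each clone is 1 line, so nothing below has a replicate and no difference was tested. The ZEB1 lists ran from 1515 peaks (WT clone) over 2160 (delta-Repeat clone) and 4804 (MiaPaCa2) to 7193 (RKO), and the CTCF list had 31754. Read depth is unknown. The lowest −log10 q of each list lay between 2.00 and 2.19 and the lowest fold between 1.62 and 1.87, so that the shorter lists did not end at stronger peaks. A place is listed only past the caller's threshold, and a missing peak does not show that signal was absent.

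ZEB1 is a zinc-finger repressor of epithelial genes and a driver of the epithelial-to-mesenchymal transition, in which cells lose their junctions and become motile. The miR-200 microRNAs bind the messenger RNAs of ZEB1 and ZEB2 and hold them down in epithelial cells, and ZEB1 in turn represses the genes of these microRNAs, a double-negative loop. CTCF is found at insulators and anchors chromatin loops. A microRNA finds its targets mainly through its seed, bases 2 to 8 from the 5′ end. The mature sequences of the 3p arms (for miR-429, its only listed arm) show what unites the 5 genes across both places. They are RefSeq's, for GRCh38.p14, with the seed in capitals. The first 3 come from chromosome 1 and the other two from chromosome 12.

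miR-200b-3p: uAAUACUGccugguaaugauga
miR-200a-3p: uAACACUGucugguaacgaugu
miR-429: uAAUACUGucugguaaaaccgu
miR-200c-3p: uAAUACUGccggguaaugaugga
miR-141-3p: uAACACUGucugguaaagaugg

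The seeds fall into 2 kinds that differ at 1 base, at position 4. miR-200b, miR-429 and miR-200c share AAUACUG, and miR-200a and miR-141 share AACACUG. Each genomic cluster carries both kinds. Among 2545 mature sequences in the RefSeq table, these seeds occurred in 3 and in 2, all of them members of this family. The closest relatives sit on different chromosomes: miR-200b-3p and miR-200c-3p differ at 2 of the 22 positions compared, and so do miR-200a-3p and miR-141-3p. Within chromosome 1, miR-200b-3p differs from miR-200a-3p at 4 positions and from miR-429 at 6.

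Peaks lay around both clusters, but in different arrangements. On chromosome 1 RKO had 10 ZEB1 peaks, MiaPaCa2 had 4, the WT clone 2 and the delta-Repeat clone 0, beside 1 CTCF peak. On chromosome 12 RKO and MiaPaCa2 had 3 ZEB1 peaks each, the WT clone 2 and the delta-Repeat clone 1, beside 7 CTCF peaks. Joined where they overlap by at least 1 bp, the 16 ZEB1 peaks of chromosome 1 made 10 regions, and the 9 of chromosome 12 made 4. Of the 10 regions 6 were in RKO alone, 2 in MiaPaCa2 and RKO, and 2 in MiaPaCa2, RKO and the WT clone. Of the 4 regions 1 was in all 4 ZEB1 lists, 1 in the 3 other than the delta-Repeat clone's, 1 in MiaPaCa2 alone and 1 in RKO alone. The chromosome 1 window reaches 62.5 kb before and 22.5 kb after MIR200B, and the chromosome 12 window 32.9 kb before and 27.1 kb after MIR200C. The counts lean on list length: when only the top 1515 peaks of each list by −log10 q were kept, chromosome 1 had 2 peaks each of RKO, MiaPaCa2 and the WT clone and no CTCF peak. Chromosome 12 then had 0 RKO, 2 MiaPaCa2, 2 WT clone, 1 delta-Repeat clone and 2 CTCF peaks.

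For scale, chromosomes 1 to 22 and X were cut end to end into pieces as long as each window. Of 35664 pieces of 85 kb, 0.320% held at least 4 MiaPaCa2 ZEB1 peaks and 0.0729% at least 10 RKO peaks. At least 2 WT clone peaks were in 0.432% of these pieces, at least 1 delta-Repeat clone peak in 5.12% and at least 1 CTCF peak in 44.9%. Most pieces held no WT clone peak either, since 3.65% had at least 1, so these shares do not describe a place where the WT clone has strong peaks. Among WT clone peaks in the highest of 4 classes by fold, to which both peaks of this window belong, 3.43% had no delta-Repeat clone peak. Of 50527 pieces of 60 kb, 0.465% held at least 3 MiaPaCa2 peaks, 1.09% at least 3 RKO peaks, 0.277% at least 2 WT clone peaks and 3.70% at least 1 delta-Repeat clone peak. At least 7 CTCF peaks were in 0.101% of them. Pieces with at least 1 ZEB1 peak were more frequent near both clusters. Within 5 Mb of MIR200B they made up 38.9% for MiaPaCa2 and 44.4% for RKO, against 9.59% and 11.9% over all chromosomes. Within 5 Mb of MIR200C the share was 13.9% for each, against 7.08% and 9.02%. Of the 72 pieces within 5 Mb of MIR200B, 6.94% reached the MiaPaCa2 count, 4.17% the RKO count and 9.72% the WT clone count. At least 1 delta-Repeat clone peak was in 18.1% of them. Of the 166 pieces within 5 Mb of MIR200C, these shares were 2.41%, 1.20%, 1.20% and 9.04% in the same order. The RKO share there was near its 1.09% over all chromosomes. For CTCF on chromosome 12 the local share was 0.602%, that is 1 piece, and this is the piece that holds the cluster itself. The same piece is counted in the chromosome 12 shares of all 4 ZEB1 lists. It was left out of neither the local nor the genome-wide shares, so they do not describe the surroundings alone. On chromosome 1 a border between pieces fell inside the window, after MIR429 and before the next peak. The MiaPaCa2 and WT clone peaks of the window were split by it, and neither piece reached their window counts. The windows were placed around the genes and the pieces were not, so window counts and shares are not like for like.

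**Figure D1:**
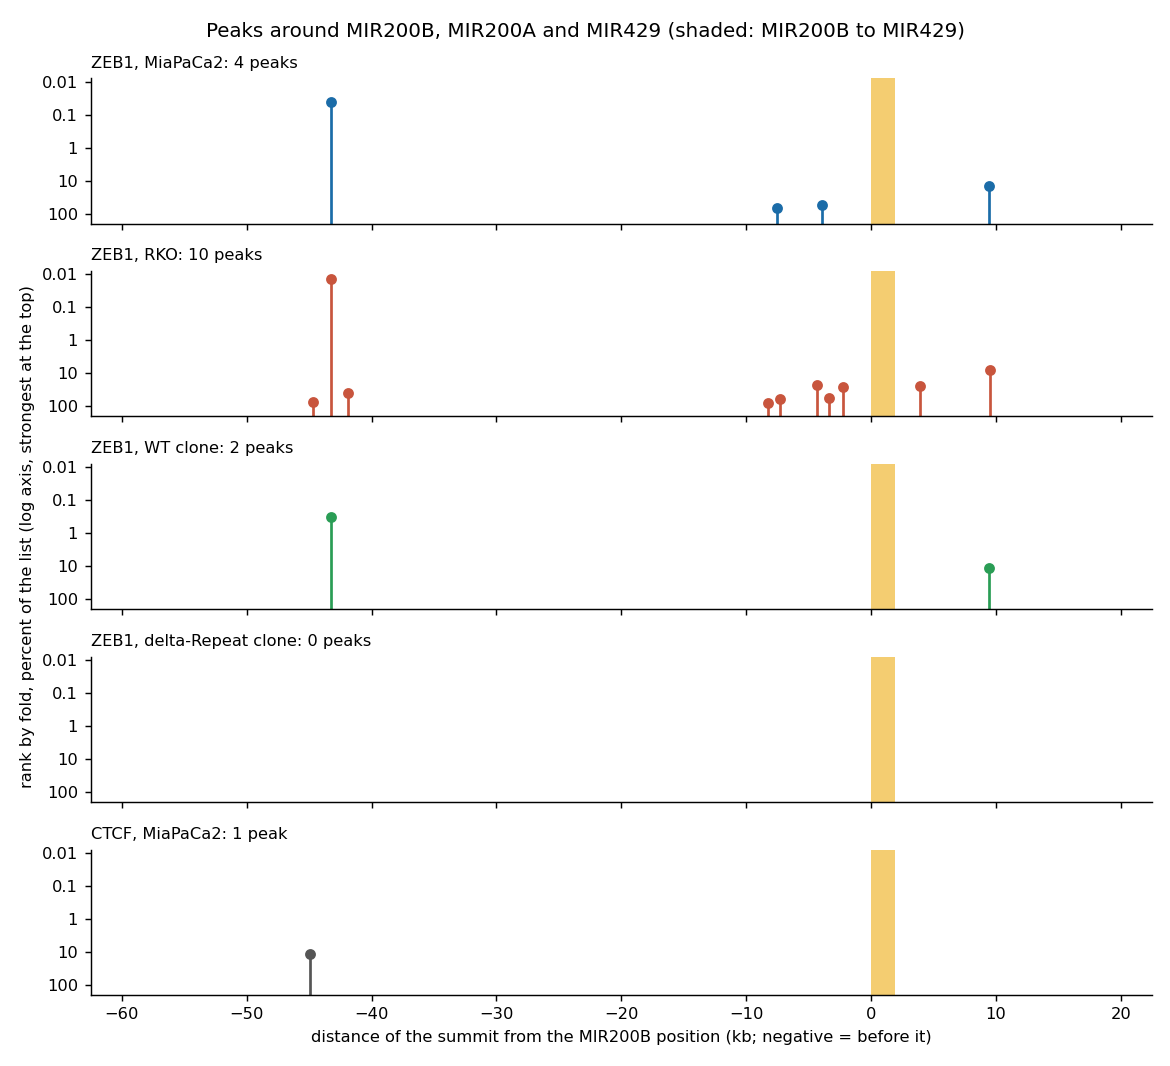
Each point is a peak in the chromosome 1 window: across, the distance of its summit from MIR200B in kb, and upward, its rank by fold as a percent of its own list on a log axis, with the strongest at the top. In MiaPaCa2, RKO and the WT clone the strongest peak stands 43.2 kb before MIR200B, the other peaks rank far lower, and the delta-Repeat clone panel is empty.

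The strongest ZEB1 peak of the chromosome 1 cluster lay far from the microRNAs. Its summit was 43220 bp before MIR200B in the WT clone, 43226 bp in RKO and 43235 bp in MiaPaCa2, so that the 3 summits fell within 15 bp of each other. The authors' fold enrichment at the summit was 105 in MiaPaCa2 (rank 2 of its list), 108 in RKO (rank 1) and 45.7 in the WT clone (rank 5). These folds were 16.1, 17.8 and 6.13 times the median of their lists. The peak was also broad. It ran over 1759 bp in MiaPaCa2 (1058354 to 1060112, width rank 21), 2374 bp in RKO (1057959 to 1060332, width rank 8) and 1510 bp in the WT clone (1058493 to 1060002, width rank 8), where the median peak of these lists was 379, 333 and 338 bp wide. The summits thus lay closer together than the edges.

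Flanking signal at this distal site differed between lists. RKO had 2 more peaks beside the main one, of 222 bp (1057679 to 1057900, fold 5.03, rank 5374) and of 475 bp (1060502 to 1060976, fold 6.57, rank 2913). Neither had a counterpart in the other ZEB1 lists. The only CTCF peak of the window (1057136 to 1057841, fold 19.8, rank 3604 of its list) ended 117 bp before the main RKO peak, 512 bp before the MiaPaCa2 peak and 651 bp before the WT clone peak. The first small RKO peak overlapped it by 163 bp, and since CTCF was mapped in MiaPaCa2 this sets 2 cell lines side by side. The main ZEB1 summits lay between 1654 and 1669 bp after the CTCF summit, and no main peak overlapped it.

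**Figure D2:**
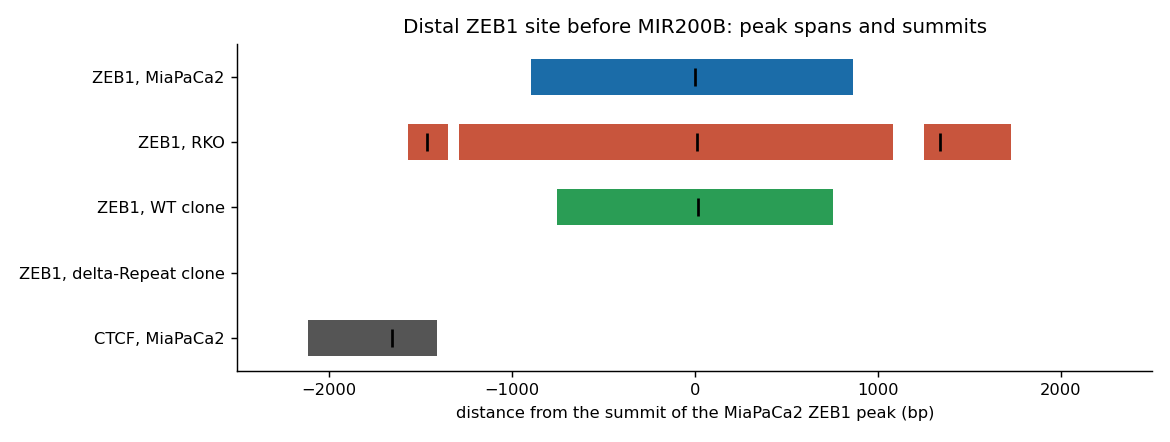
Bars are the spans of peaks around the distal ZEB1 site on chromosome 1, in bp from the MiaPaCa2 summit, and black ticks are summits. The ZEB1 summits of MiaPaCa2, RKO and the WT clone line up within 15 bp, the CTCF peak lies to the left without touching a main peak, and the delta-Repeat clone has none.

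Close to MIR200B, MIR200A and MIR429 most peaks were those of RKO, and each ranked below the distal site in its own list. Within 10 kb of MIR200B RKO had 7 ZEB1 peaks, MiaPaCa2 had 3, the WT clone 1 and the delta-Repeat clone 0, and there was no CTCF peak. Within 1 kb none of the lists had a summit. The nearest RKO summit lay 2277 bp before MIR200B (1099906 to 1100578, 673 bp wide, fold 7.82, rank 1837). The nearest MiaPaCa2 summit lay 3957 bp before it (1098090 to 1098697, 608 bp, fold 6.34, rank 2571), and RKO had a peak at the same place (1098055 to 1098680, 626 bp, fold 8.24, rank 1640). The summits of that shared region were 349 bp apart. On the far side, the nearest peak to MIR429 was in RKO alone and began 1832 bp after the MIR429 position (1106232 to 1106569, fold 8.15, rank 1679).

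The remaining peaks before MIR200B had folds below the median of their lists. MiaPaCa2 and RKO shared a region 7558 and 7320 bp before MIR200B, where the fold was 5.66 in MiaPaCa2 (rank 3296) and 5.58 in RKO (rank 4325). RKO alone had narrow peaks 8227 bp before it (201 bp wide, fold 4.81, rank 5758) and 3414 bp before it (200 bp wide, fold 5.76, rank 4077). MIR200A sits between MIR200B and MIR429, and no list had a peak between the positions of those genes.

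After the genes, a region seen in 3 lists stood out by rank. Its summit was 9455 bp after MIR200B in MiaPaCa2, 9476 bp in RKO and 9463 bp in the WT clone, a spread of 21 bp. It had a fold of 11.1 in MiaPaCa2 (1111686 to 1112228, rank 721), 12.6 in RKO (1111739 to 1112231, rank 562) and 14.6 in the WT clone (1111748 to 1112131, rank 174). In the WT clone it was the only peak within 10 kb of MIR200B. In the gene order of GRCh38.p14, TTLL10-AS1 and TTLL10 follow MIR429, and the host transcript MIR200BHG precedes MIR200B. To which gene the peak belongs was not measured.

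**Figure D3:**
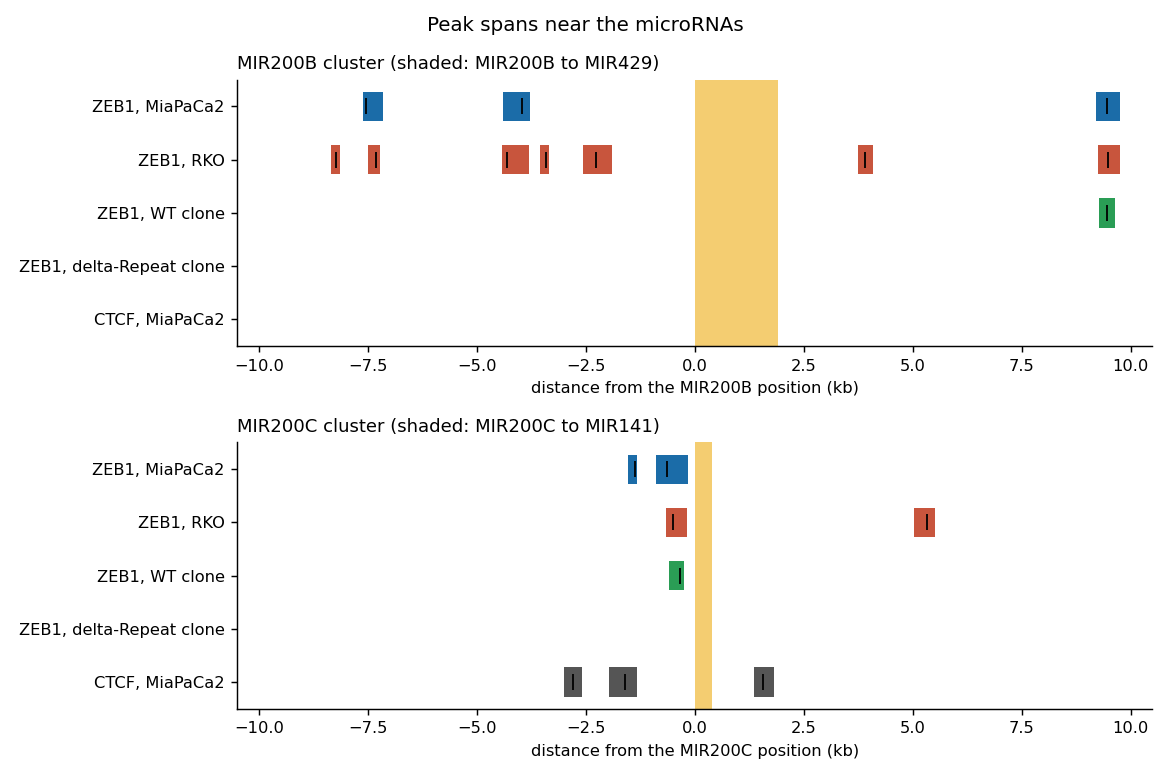
Bars are peak spans in kb from MIR200B (above) and from MIR200C (below), black ticks are summits, and the shaded band runs from the first to the last microRNA of each cluster. Around MIR200B the peaks are spread over several kb and RKO has 7 of them, while before MIR200C a ZEB1 peak lies within 1 kb in 3 lists, between CTCF peaks.

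On chromosome 12 the ZEB1 peak nearest to the microRNAs was close to them. Its summit lay 634 bp before MIR200C in MiaPaCa2 (7071968 to 7072707, 740 bp wide), 493 bp before it in RKO (7072191 to 7072668, 478 bp) and 342 bp before it in the WT clone (7072257 to 7072614, 358 bp). The near edges were 155, 194 and 248 bp from MIR200C, and 553, 592 and 646 bp from MIR141. No span reached either microRNA position. The fold was 7.40 in MiaPaCa2 (rank 1834), 7.81 in RKO (rank 1863) and 4.96 in the WT clone (rank 1413 of 1515). This put the site in the upper 38.2% of the MiaPaCa2 list and 25.9% of the RKO list, and at 93.3% of the WT clone list, near its bottom. Its summits were spread over 292 bp, against 15 bp at the distal site of chromosome 1. The delta-Repeat clone had no peak here.

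**Figure D4:**
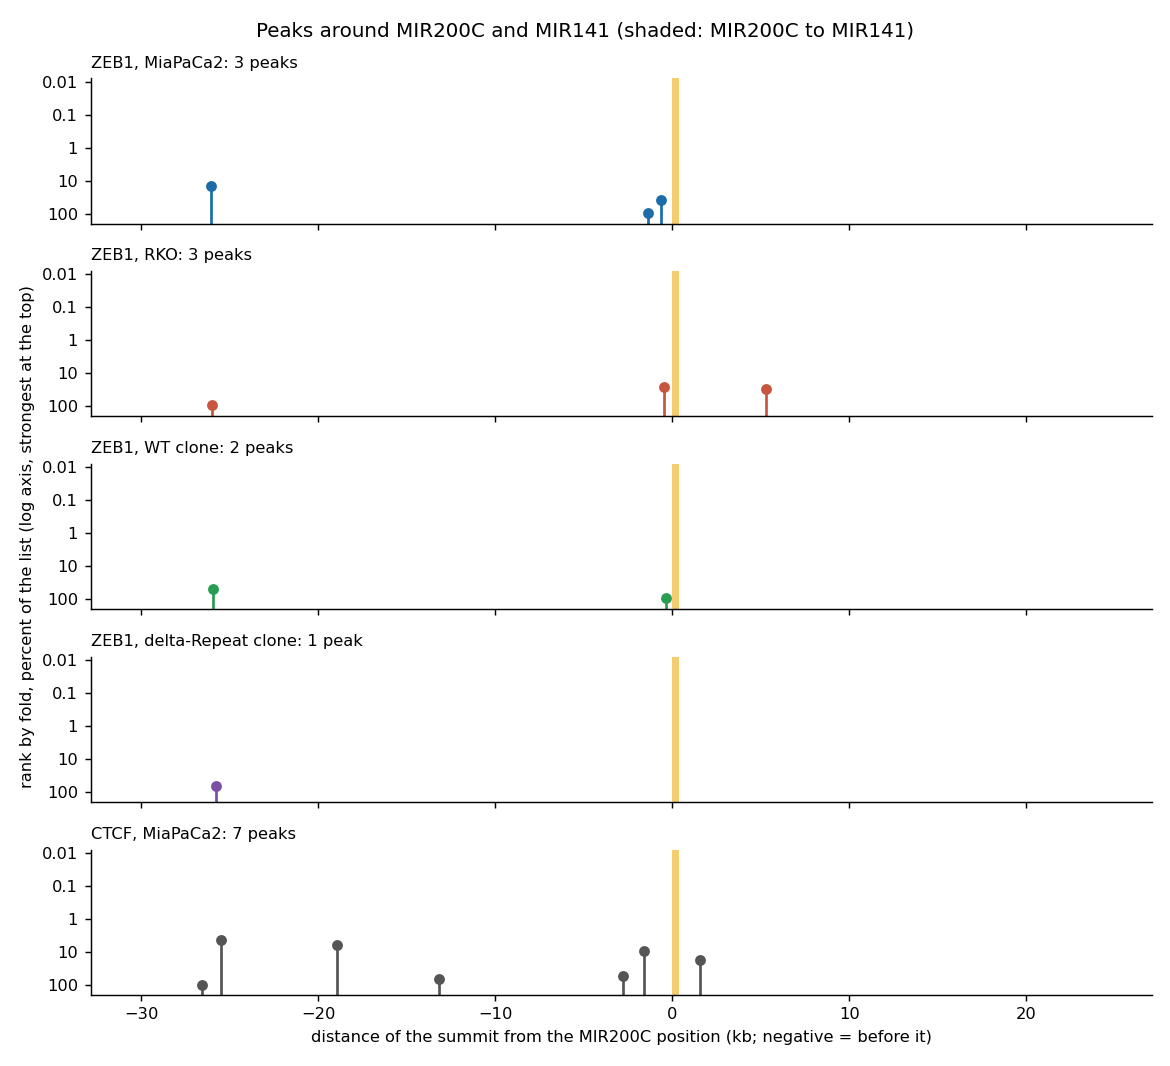
Peaks of the chromosome 12 window by the distance of the summit from MIR200C in kb and by rank as a percent of the list, on a log axis with the strongest at the top. No ZEB1 peak reaches the height of the distal chromosome 1 site, 1 place near 26.0 kb before MIR200C is marked in all 4 ZEB1 lists, and CTCF has 7 peaks.

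The single ZEB1 region of either window that was in all 4 lists lay about 26.0 kb before MIR200C. Its summit was 26041 bp before MIR200C for MiaPaCa2 (fold 11.3, rank 698), 26001 bp in RKO (fold 4.20, rank 6623), 25931 bp in the WT clone (fold 7.60, rank 738) and 25807 bp in the delta-Repeat clone (fold 6.14, rank 1437 of 2160). It was the strongest ZEB1 peak of the window in MiaPaCa2 and the WT clone, and the weakest of the window in RKO. In the delta-Repeat clone it was the only one. A strong CTCF peak (7046926 to 7047607, fold 24.6, rank 1367) overlapped the ZEB1 peak of each of the 4 lists, by 144 bp in RKO, 266 bp in the delta-Repeat clone, 319 bp in MiaPaCa2 and 347 bp in the WT clone. The ZEB1 summits lay 488, 294, 528 and 418 bp from the CTCF summit in the same order.

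The remaining ZEB1 peaks of chromosome 12 were each in 1 list. MiaPaCa2 had a narrow peak 1368 bp before MIR200C (7071332 to 7071531, 200 bp, fold 4.30, rank 4558 of 4804), all 200 bp of which lay inside a CTCF peak. RKO had a peak 5323 bp after MIR200C (7077888 to 7078379, fold 7.49, rank 2069). Past MIR141 the gene order runs PHB2, SCARNA12, EMG1, and PTPN6 stands before the host transcript MIR200CHG.

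CTCF peaks lay on both sides of MIR200C and MIR141, and only far before the chromosome 1 genes. The 7 peaks had folds from 3.59 to 24.6, and summits of neighbours lay between 1050 and 10401 bp apart. The closest to MIR200C were 1596 bp before it (7070900 to 7071543, fold 20.8, rank 2942) and 1566 bp after it (7074229 to 7074685, fold 17.3, rank 5745). Both microRNAs and the nearby ZEB1 peak of 3 lists lay between these summits, which were 3.16 kb apart. Around MIR200B the nearest CTCF summit was 44.9 kb away. ZEB1 peaks overlapped a CTCF peak in 0 of 4 cases on chromosome 1 and 2 of 3 on chromosome 12 in MiaPaCa2, where both proteins were mapped, against 20.2% of all MiaPaCa2 ZEB1 peaks. In the other direction 0 of 1 and 2 of 7 CTCF peaks met a MiaPaCa2 ZEB1 peak, against 3.10% of all CTCF peaks. With summits required to lie within 100 bp, no ZEB1 peak of either window met a CTCF peak.

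The clones were compared to see which ZEB1 peaks were missing where the repeat had been targeted. On chromosome 1, 2 of 2 WT clone peaks had no delta-Repeat clone peak, and on chromosome 12, 1 of 2. The match on chromosome 12 was lost when summits had to lie within 100 bp. Over the whole list 26.6% of WT clone peaks had none. That share falls steeply with strength, from 46.3% in the lowest of 4 classes by fold to 3.43% in the highest. The distal site and the site after MIR429 were both in the highest class, and the distal site was the only one of the 100 strongest WT clone peaks without a counterpart. The site before MIR200C was in the lowest class, where absence was frequent. Of the 378 WT clone peaks in that class, 175 had no delta-Repeat clone peak. That share describes the class, and why this 1 peak was missing was not tested. Whether the DNA under the missing chromosome 1 peaks was still present in the delta-Repeat clone was not tested.

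Set against unmodified MiaPaCa2 cells, both clones lacked peaks. None of the 4 MiaPaCa2 peaks of chromosome 1 had a counterpart in the delta-Repeat clone, and 2 of the 4 had none in the WT clone. On chromosome 12, 2 of 3 were without one in the delta-Repeat clone and 1 of 3 lacked one in the WT clone list. Over the whole MiaPaCa2 list 62.0% of peaks were without a delta-Repeat clone peak and 70.7% without a WT clone peak. The peaks missing from the WT clone were those 3957 and 7558 bp before MIR200B and 1368 bp before MIR200C, all with folds below the MiaPaCa2 median.

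Between pancreatic and colon cells, all 4 MiaPaCa2 peaks of chromosome 1 and 2 of the 3 of chromosome 12 overlapped an RKO peak, against 57.4% of all MiaPaCa2 peaks. Of the RKO peaks, 6 of 10 on chromosome 1 and 1 of 3 on chromosome 12 had no MiaPaCa2 peak, against 60.9% of all RKO peaks. The share of RKO peaks without a partner around MIR200B was thus near that of the whole list. The chromosome 1 window held 10 RKO peaks and 4 MiaPaCa2 peaks, from lists of 7193 and 4804. With both lists cut to the 1515 peaks of highest −log10 q, the length of the WT clone list, it held 2 of each. That cut removes weak peaks of both lists. By −log10 q, the RKO peaks of the window ranked 4876, 5607 and 6568 lay past the MiaPaCa2 length of 4804. The other RKO peaks of the window ranked within it and outnumbered the 4 of MiaPaCa2.

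The start regions of both host transcripts are shown because ZEB1 peaks of MiaPaCa2 and RKO lay at like distances before the microRNAs. The nearness of these regions to those peaks was thus fixed by the choice, and sequence under the other peaks was not searched. For MIR200B the peaks in question were not the nearest RKO or WT clone peaks, which lay 2277 bp before and 9463 bp after it by their summits. RefSeq's promoter windows, from 250 bp before to 50 bp after the start of each transcript, are given 5′ to 3′ on the plus strand for GRCh38.p14, with chr1:1162627-1162926 for MIR200BHG and chr12:6962995-6963294 for MIR200CHG. Capitals mark CACCTG, the E-box form that ZEB1 is known to bind, and its variant TACCTG. Both were searched on both strands, so that CAGGTG and CAGGTA count too, and no matches overlapped.

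MIR200BHG: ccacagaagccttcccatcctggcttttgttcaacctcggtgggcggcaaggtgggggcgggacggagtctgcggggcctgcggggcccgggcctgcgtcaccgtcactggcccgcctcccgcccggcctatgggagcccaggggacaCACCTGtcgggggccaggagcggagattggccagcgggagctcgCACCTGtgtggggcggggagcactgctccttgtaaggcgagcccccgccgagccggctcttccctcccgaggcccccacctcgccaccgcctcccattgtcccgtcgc
MIR200CHG: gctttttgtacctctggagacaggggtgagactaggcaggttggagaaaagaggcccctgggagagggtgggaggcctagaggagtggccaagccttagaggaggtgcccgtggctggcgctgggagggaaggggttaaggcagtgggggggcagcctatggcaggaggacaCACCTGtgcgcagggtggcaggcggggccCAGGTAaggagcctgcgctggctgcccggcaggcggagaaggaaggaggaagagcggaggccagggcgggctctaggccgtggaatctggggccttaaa

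Each window held 2 matches. In MIR200BHG both were CACCTG, 102 and 58 bp before the start of the transcript. In MIR200CHG they were CACCTG at 78 bp and CAGGTA at 49 bp before the start. Of 35116 RefSeq promoters of this length, 20.6% held CACCTG at least once and 3.49% at least 2 times, 9.83% held TACCTG, and 5.90% held at least 2 matches of either kind. Both windows were rich in G and C, at 72.7% and 65.7%. Within GRCh38.p14 the 2 matches of MIR200BHG lay 4329 and 4285 bp before the start of the MIR200B hairpin, and within hg19 the nearest peaks in common to MiaPaCa2 and RKO spanned 4394 to 3787 bp and 4429 to 3804 bp before MIR200B. For MIR200CHG the matches lay 532 and 503 bp before the MIR200C hairpin, and the ZEB1 peaks spanned 894 to 155 bp in MiaPaCa2, 671 to 194 bp in RKO and 605 to 248 bp in the WT clone. Each distance was taken within its own assembly and none was converted. The spacing of MIR200C and MIR141 was 398 bp in both. From MIR200B to MIR429 it was 1916 bp between the hg19 positions used here, which are approximate, and 1901 bp between the hairpin starts of GRCh38.p14. A match is a run of letters and does not show that ZEB1 sits on it.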

How the data were processed

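Peaks are the submitters' own calls, and the submitters' processing notes name MACS2 2.1.0.20150731 beside Bowtie2 2.2.6 and SAMtools, with GRCh37 (hg19) as the build. Which control each list had, and whether libraries were pooled, are not given in the sources used here. Fold enrichment, as deposited, is a linear ratio of the summit to the background the caller estimated. Significance in the deposited lists is a −log10 p-value and a −log10 q-value. The deposited score was not used. The summit offset, whole bp from the peak start in the deposited lists, was turned into a position counted from 1.

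Ranks are by fold within a list, rank 1 being the strongest. Folds were not compared between lists, whose depth and control are unknown. Peaks matched when they shared at least 1 bp. The WT clone list was split by fold into 4 classes of like size. Pieces of window length were counted by summit. Python 3.11.15, numpy 2.4.6, pandas 2.3.3 and matplotlib 3.10.9 were used. The overlap code found all 500 planted overlaps in each of 3 simulated comparisons and matched bedtools 2.31.1 in 20 pairs of real lists. Mature sequences matched by symbol for 5 of 5 microRNAs and promoters for 2 of 2 host transcripts. The microRNA positions are approximate values supplied with the windows. Windows, members and motifs were chosen with earlier results of these data known. Every peak of the windows is named or counted. The 4 input samples were not analysed here. The wider list of pathway genes was not used here, since it needed an hg19 annotation.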

Additional observations from a re-analysis of the deposited data

How the results depend on the processing

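No paired analysis was possible because each condition has 1 sample. Of 83 values under alternatives 56 stayed within 1.5 times the main value and 27 did not. Main values of 0 stayed 0 and are among the 56. A stricter rule cannot raise a 0, so some of the 56 could not have moved. Keeping peaks of −log10 q 10 or more and fold 5 or more, chromosome 1 kept 2 MiaPaCa2 and 5 RKO peaks, and chromosome 12 kept 0 delta-Repeat clone peaks and 1 of the WT clone. With every list cut to the 1515 peaks of highest −log10 q, chromosome 1 held 2 RKO, 2 MiaPaCa2 and 0 CTCF peaks, against 2 of the WT clone, and chromosome 12 held 0 RKO and 2 CTCF peaks. This setting removes weak peaks of the longer lists by construction. Windows wider by 20 kb on each side held 5 MiaPaCa2 and 3 delta-Repeat clone peaks on chromosome 12. Assigning peaks by summit changed no count. By −log10 q the distal peak ranked 2 in RKO and 3 in the WT clone. From its nearest edge, MIR200C was 155 bp from the MiaPaCa2 and 194 bp from the RKO peak. With summits within 100 bp, 2 MiaPaCa2 peaks of chromosome 1 and 1 of chromosome 12 were shared with RKO, 0 WT clone peaks of chromosome 12 were shared with the delta-Repeat clone, and 0 ZEB1 peaks of any list met CTCF. With 50% of both peaks, 1 WT clone peak of chromosome 12 still met CTCF, and 0 of the others did. The WT clone peaks of chromosome 1 were without a delta-Repeat clone peak in all 3 matching rules, which was fixed since the delta-Repeat clone had none in the window. Unknown depth limits every absence.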

Other observations

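The delta-Repeat clone peaks nearest to each window on the outside were looked up in the other lists, so their presence in that clone was fixed by the choice. Other lists had outside peaks nearer to the chromosome 1 window, in MiaPaCa2 (1015414 to 1015685) and in RKO (1025874 to 1026299 and 1131694 to 1131909), and nearer to the chromosome 12 window in MiaPaCa2 (7038606 to 7039084). Before the chromosome 1 window, 99.3 kb from MIR200B by the delta-Repeat clone summit, a peak was in all 4 ZEB1 lists, with a fold of 15.4 in MiaPaCa2 (rank 377), 13.5 in RKO (rank 472), 9.56 in the WT clone (rank 430) and 6.42 in the delta-Repeat clone (1003132 to 1003417, rank 1316). After it, 106 kb from MIR200B, another was in all 4, with folds of 13.9, 11.7, 6.01 and 7.98 in the same order, and summits within 80 bp. After the chromosome 12 window, 53.0 kb from MIR200C in the delta-Repeat clone, a peak was in all 4 ZEB1 lists, with folds of 9.20, 9.13, 4.85 and 6.36 and summits within 197 bp. A CTCF peak (7126063 to 7126525, fold 25.0, rank 1231) stood at the same place. Before that window the nearest delta-Repeat clone peak (7035085 to 7035294, fold 4.69, rank 2022 of 2160) was shared with MiaPaCa2 only.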
